A study of Arabidopsis thaliana with 8 samples.

Results

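The UDP-glycosyltransferases of Arabidopsis thaliana are named UGT and a number for the subfamily, and the genes described here are those with a UGT symbol on an Affymetrix array of roots and shoots grown with or without selenate. A UGT gene entered the set when its probe set matched 1 gene and its signal was 100 or more on at least 2 of the 8 arrays; UGT74B1 was left out of the set. Of 46 UGT genes named on the probe table, 33 met this rule, from 11 subfamilies, among 16053 probe sets tested in all. The seedlings were of the ecotype WS, 10 days old, raised at 22 °C in cycles of 16 h of light and 8 h of dark on vertical plates of half-strength Murashige and Skoog (MS) medium. The 4 groups were roots from plates with 40 µM selenate, shoots from plates with 40 µM selenate, roots from plates without it and shoots from plates without it, with 2 arrays each. Titles and tissue labels place 4 arrays in shoots, although the description text of those arrays speaks of roots.

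UGT enzymes move the sugar of a UDP-sugar onto small acceptor molecules. Their acceptors include monolignols and hydroxycinnamates, flavonols and anthocyanidins, plant hormones, and foreign compounds, and a sugar usually makes the acceptor more soluble and ready for storage in the vacuole. Roots and shoots are known to hold different sets of glycosides. Selenate is taken up by sulfate transporters and assimilated through the sulfate pathway.

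Array scaling was alike, with trimmed means between 500.04 and 500.05, but the organs differed beneath it. On root arrays 14182 to 14659 probe sets were at 100 or more, against 13260 to 13477 on shoot arrays. Median signals were 200.95 to 212.5 on root arrays and 165.65 to 171.65 on shoot arrays. The organ labels held for all 8 marker genes: SBPASE, PRK, LHCB4.1, LHCB4.2 and PSAE-1, which serve photosynthesis, were higher in control shoots than in control roots by log2 values of 4.61 or more, and PYK10, EXPA7 and EXPA18, which mark roots, were lower in control shoots by log2 values of -1.24 to -3.82. RNA quality differed between organs and between shoot arrays. The ratio of 3′ to 5′ signal of the GAPDH control probes was 7.34 and 2.95 on selenate shoot arrays 1 and 2 and 2.03 and 10.4 on control shoot arrays 1 and 2, against 0.783 to 0.868 on the root arrays. Across the 33 UGT genes the 2 arrays of a group correlated at r = 0.992 in selenate roots, 0.986 in control roots, 0.986 in selenate shoots and 0.979 in control shoots. Over all probe sets tested, the SD of the log2 difference within a pair was 0.51 in control shoots and 0.41 in selenate shoots. It was 0.26 in control roots and 0.28 in selenate roots. The model used 1 spread over all 4 groups, so p-values in shoots also draw on the closer root pairs. Whether these pairs are separate batches of seedlings or repeats of 1 extract is not labelled. Every p-value therefore reflects only how far such paired arrays differ, which may be technical. In RNA from whole organs, fewer cells of a type and less RNA per cell cannot be told apart.

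**Figure D1:**
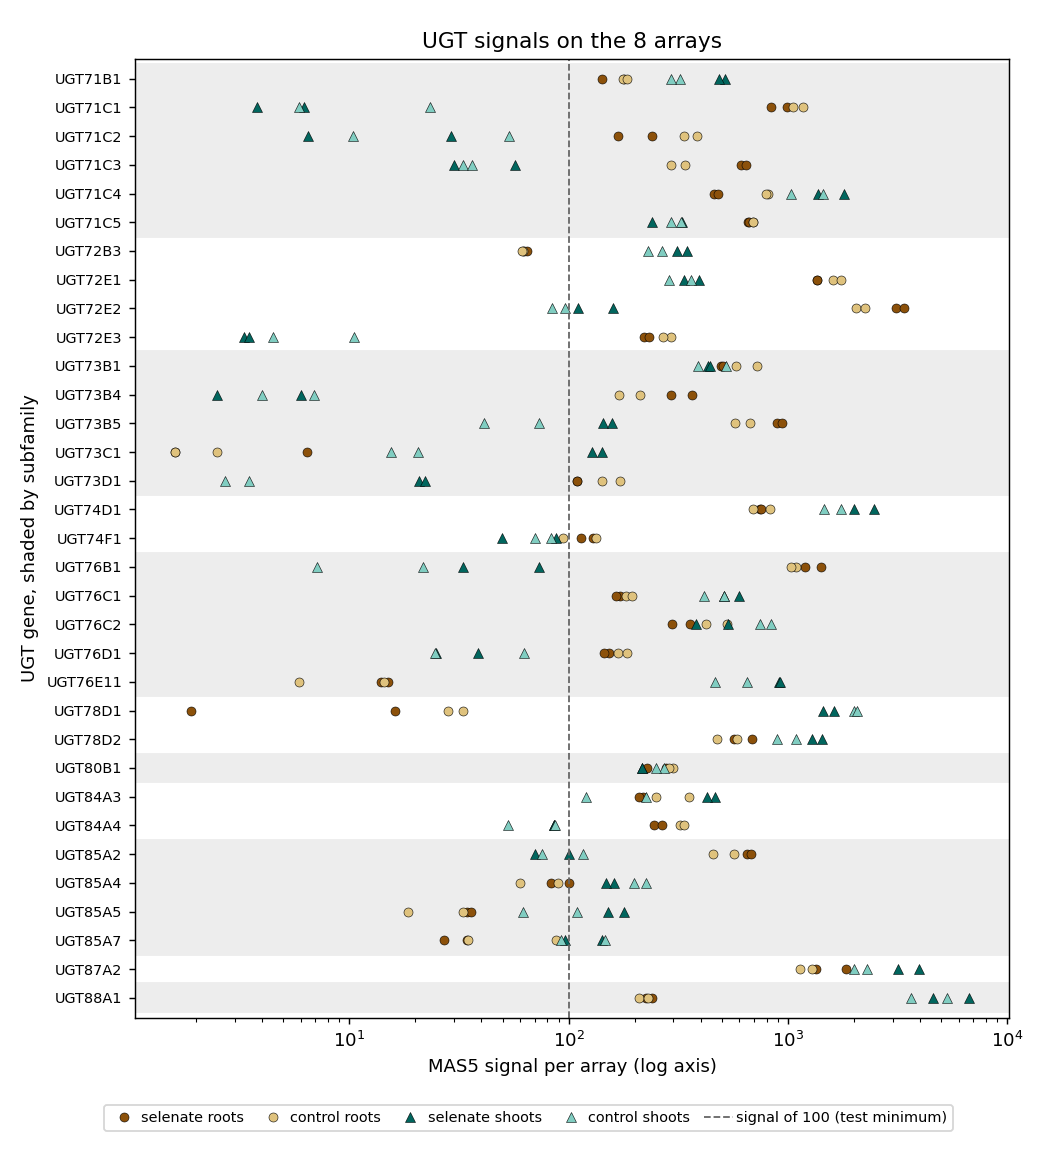
MAS5 signal of each of the 33 UGT genes on each of the 8 arrays, on a log axis, with 1 gene a row and rows shaded by subfamily. Circles are root arrays and triangles shoot arrays, dark for selenate and light for control, and the dashed line marks a signal of 100; for UGT78D1, UGT88A1 and UGT76E11 all shoot arrays lie to the right of all root arrays, and for UGT71C1 and UGT76B1 to the left.

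In selenate-treated shoots 3 UGT genes were higher than in control shoots and none was lower, at an adjusted p under 0.05 from limma, a linear model fitted to log2(signal + 25) over all probe sets tested. These were UGT73C1, which in vitro forms cytokinin O-glucosides and conjugates the explosive TNT, UGT84A3, which forms glucose esters of hydroxycinnamates such as sinapate, and UGT73B5, needed for full resistance to Pseudomonas syringae. Among all probe sets tested, 1.07% were called higher and 0.797% lower in this comparison. UGT73C1 met the signal rule through selenate shoots alone and had to differ, so its call is a description and is not read against that share. Every fold change here is on the log2(signal + 25) scale, which understates changes of low signals, and each error is a standard error of that model.

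UGT73C1 (AT2G36750) had signals of 142.0 and 128.1 in selenate shoots, against 15.5 and 20.5 in control shoots. The groups were far apart, and no other group held a signal of 100. The log2 change was 1.90 ± 0.28 (adjusted p = 0.0147), a 3.72-fold difference on that scale. In roots its signals were 1.6 and 6.4 with selenate and 1.6 and 2.5 without, all at the bottom of the scale. UGT84A3 (AT4G15490) had signals of 466.3 and 427.6 in selenate shoots, against 225.0 and 120.0 in control shoots, with the 2 control arrays wide apart but both below the selenate arrays. Its log2 change was 1.31 ± 0.27 (adjusted p = 0.0479), or 2.48-fold. UGT73B5 (AT2G15480) had signals of 142.7 and 157.7 in selenate shoots, against 73.3 and 41.2 in control shoots. These groups too did not overlap, and its log2 change was 1.12 ± 0.22 (adjusted p = 0.0393), or 2.17-fold.

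The ratio of 3′ to 5′ signal of the ubiquitin control probes was 5.24 and 6.11 on selenate shoot arrays 1 and 2, above the 4.38 and 4.88 on control shoot arrays 1 and 2, and its part in these results was not tested. The 3 calls rested on few arrays. With shoot arrays alone, limma called 0 UGT genes and 0 of all 16053 probe sets in shoots. UGT73C1 lost its call without selenate shoot array 1 (adjusted p = 0.0903) or 2 (0.0667), and with a pseudocount of 5 its log2 change was 2.61 (adjusted p = 0.0998). UGT84A3 and UGT73B5 each lost theirs when any 1 of 7 arrays was left out, that is, all but control shoot array 1; adjusted p was 0.0606 to 0.195 for UGT84A3 and 0.0503 to 0.147 for UGT73B5. Without control shoot array 2 and selenate shoot array 1, the 2 shoot arrays with the highest GAPDH ratio, the log2 changes were 1.92 for UGT73C1 (adjusted p = 0.0382), 0.89 for UGT73B5 (adjusted p = 0.0453) and 0.86 for UGT84A3 (adjusted p = 0.104). In that fit UGT76B1 was also called higher and UGT76C2 lower.

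**Figure D2:**
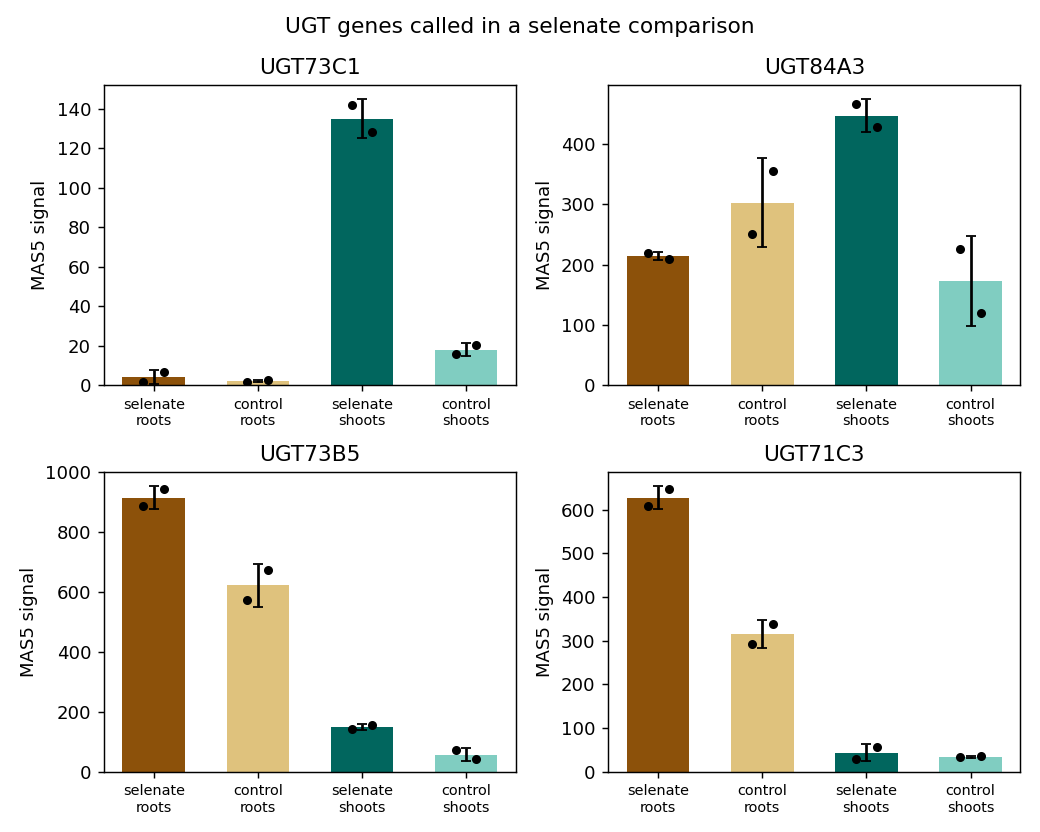
MAS5 signals of the 4 UGT genes called in a selenate comparison, with a bar for the mean of the 2 arrays of a group, a point for each array and an error bar of 1 SD. UGT73C1, UGT84A3 and UGT73B5 have both selenate shoot arrays above both control shoot arrays, and UGT71C3 has both selenate root arrays above both control root arrays.

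The other 30 UGT genes did not pass the test in shoots, with log2 changes between -0.77 and 0.96 and a lowest adjusted p of 0.108. At an unadjusted p under 0.05 there were 13 UGT genes, or 39.4%, against 14.5% of all probe sets. Both selenate arrays lay above both control arrays for 13 UGT genes, against a share of 17.1% of all probe sets, and below them for 5, against 19.0% of all probe sets. UGT73C1, which had to differ, is among the 13 genes of both counts. The median log2 change over the 33 genes was 0.25, against -0.02 over all probe sets. The highest value among the uncalled genes was that of UGT76B1, which glucosylates isoleucic acid, salicylate and N-hydroxypipecolate: its signals were 32.9 and 73.0 in selenate shoots and 21.7 and 7.1 in control shoots (log2 0.96, adjusted p = 0.136). The lowest was that of UGT76C2, a cytokinin N-glucosyltransferase, with 529.9 and 381.9 in selenate shoots and 832.5 and 741.0 in control shoots (log2 -0.77, adjusted p = 0.108). Its close relative UGT76C1, of the same activity, stood at log2 0.25. UGT87A2, which acts on flowering time, had 3934.1 and 3186.3 in selenate shoots and 2005.7 and 2284.4 in control shoots (log2 0.72, adjusted p = 0.111). UGT71B1 stood at log2 0.67, UGT76E11 at 0.71, UGT73D1 at 0.72 and UGT85A5 at 0.82, none past the test. The signals of UGT73D1 were low, at 20.7 and 22.1 in selenate shoots and 2.7 and 3.5 in control shoots. The monolignol glucosyltransferases UGT72E1, UGT72E2 and UGT72E3 ranged over log2 -0.19 to 0.45. The flavonol rhamnosyltransferase UGT78D1 stood at log2 -0.41 and UGT78D2, which glucosylates flavonols and anthocyanidins, at 0.45.

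**Figure D3:**
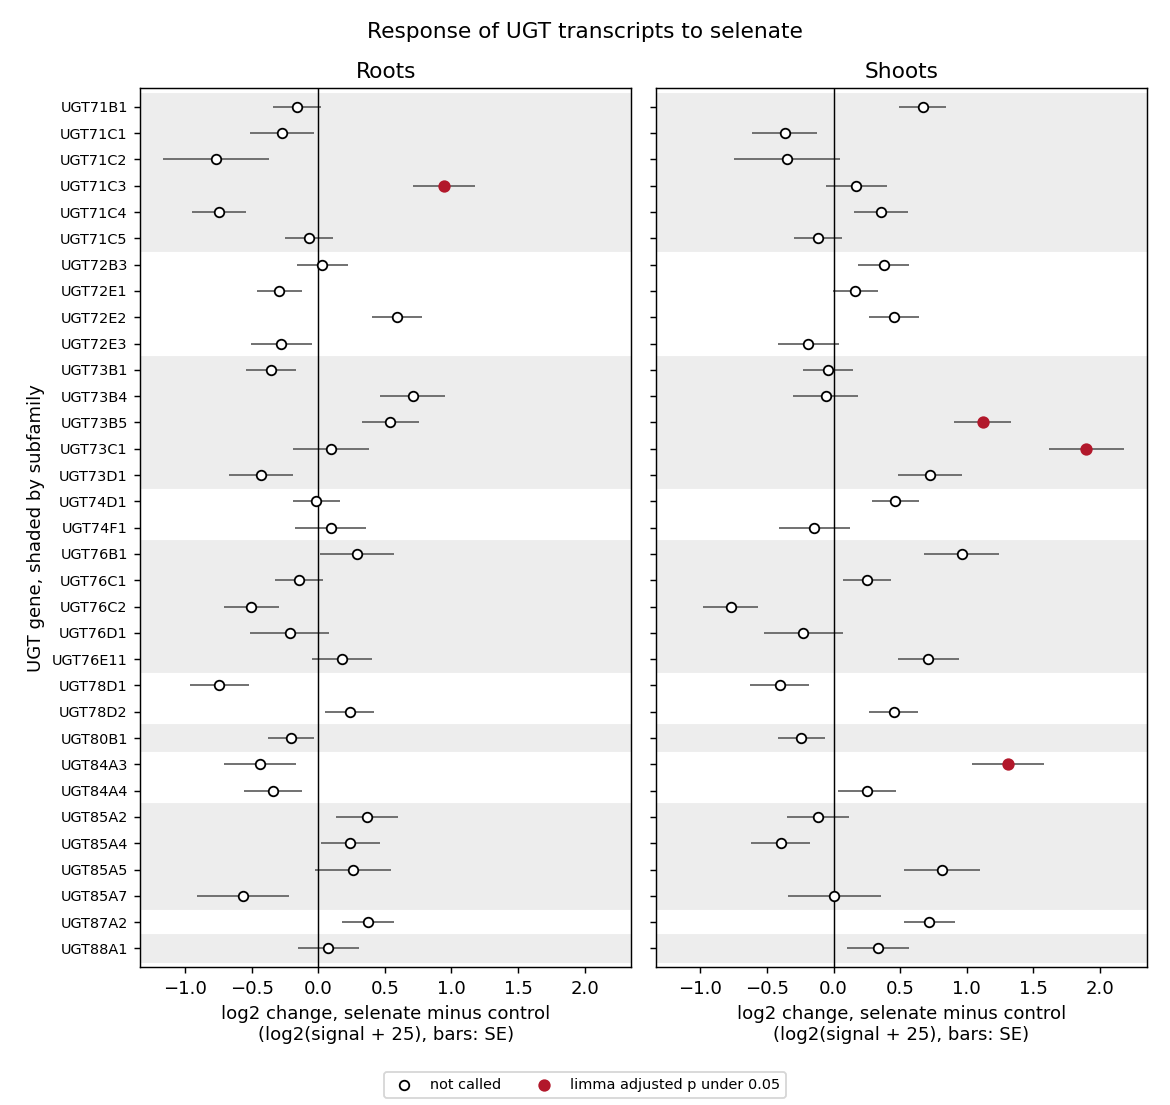
Log2 change of each of the 33 UGT genes with selenate, in roots on the left and in shoots on the right, with the standard error of the limma fit as a bar. Filled points are adjusted p under 0.05: UGT71C3 in roots, and UGT73B5, UGT73C1 and UGT84A3 in shoots; shading separates subfamilies.

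In roots 1 UGT gene was called higher and none lower, which is 3.03% of the family, against 5.71% of all probe sets in either direction, 3.35% higher and 2.37% lower. With root arrays alone, limma called 6 of the 33 UGT genes, 4 higher and 2 lower, and 2145 of all 16053 probe sets. UGT71C3 was among the higher genes in that fit, and UGT71C2 and UGT71C4 were the lower ones. UGT71C3 (AT1G07260) had signals of 608.5 and 646.2 in selenate roots, against 292.0 and 337.3 in control roots. Both selenate arrays were well above both control arrays, and the log2 change was 0.94 ± 0.23 (adjusted p = 0.0463), or 1.92-fold. In shoots its signals were 30.1 and 56.9 with selenate and 33.1 and 36.2 without, where the groups overlapped. The root call was lost when any 1 of the 4 root arrays was left out (adjusted p = 0.190 to 0.352, log2 0.85 to 1.04), and UGT71C4 was called beside UGT71C3 without control shoot array 1 or 2. Beside this result, 3 of the 5 shoot markers were called lower in selenate roots (LHCB4.2 log2 -1.82, PSAE-1 -0.97, LHCB4.1 -0.69). Of the 3 root markers, 1 was called lower (EXPA7 -1.16). The remaining markers were not called: EXPA18 at log2 -1.34 (adjusted p = 0.178), PRK at -0.52 (adjusted p = 0.120), SBPASE at -0.04 and PYK10 at 0.08. The part of these shifts in the UGT values was not tested.

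The remaining 32 genes lay between log2 -0.77 and 0.71 in roots, with a lowest adjusted p of 0.0756. That lowest value belonged to UGT71C4, with 459.0 and 481.7 in selenate roots and 812.9 and 792.7 in control roots (log2 -0.74). Its 2 groups did not overlap. Both selenate root arrays lay below both control arrays for 16 UGT genes, against 29.9% of all probe sets, and above them for 9, against 23.6%. The median log2 change was -0.07 over the UGT genes and -0.02 over all probe sets. UGT72E2, which glucosylates coniferyl and sinapyl alcohol, had 3094.6 and 3392.0 in selenate roots and 2036.2 and 2250.0 in control roots (log2 0.59, adjusted p = 0.130). UGT72E1 and UGT72E3 stood at log2 -0.29 and -0.28. UGT73B4, which also conjugates TNT in vitro, had 292.3 and 363.7 in selenate roots and 169.8 and 212.2 in control roots (log2 0.71, adjusted p = 0.173), and UGT73B5 had 888.0 and 942.9 in selenate roots and 572.3 and 672.4 in control roots (log2 0.54, adjusted p = 0.262). UGT78D1 was at 16.1 and 1.9 in selenate roots and 33.1 and 28.2 in control roots, low signals in both groups (log2 -0.74, adjusted p = 0.107).

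The test of the root response minus the shoot response called 2 UGT genes, both lower, against 1.42% of all probe sets lower, 2.28% higher and 3.70% in either direction. For UGT73C1 the difference was -1.80 ± 0.40 on the log2 scale (adjusted p = 0.0434), from log2 changes of 0.10 in roots and 1.90 in shoots. Because this gene met the signal rule through selenate shoots alone and its root signals of 1.6 to 6.4 were at the bottom of the scale, the value describes these arrays and does not show that its response is particular to shoots. UGT84A3 had a difference of -1.75 ± 0.38 (adjusted p = 0.0390). Its root signals were 219.0 and 209.4 with selenate and 251.1 and 354.6 without, a log2 change of -0.44 (adjusted p = 0.564), so its values stood on opposite sides of 0 in the 2 organs, and the root change did not pass the test. The difference of UGT73C1 lost its call without any 1 of 7 arrays, all but control shoot array 2 (adjusted p = 0.0626 to 0.182), and that of UGT84A3 without any root array or either selenate shoot array (adjusted p = 0.0791 to 0.187). For UGT73B5 and UGT71C3 no difference between organs was called (log2 -0.58, adjusted p = 0.422, and log2 0.77, adjusted p = 0.293), so their calls in 1 organ are not shown to be particular to it. Over the other 31 genes the difference ranged over log2 -1.15 to 0.77.

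UGT levels differed widely between the organs. In control shoots against control roots, 13 UGT genes were higher and 16 were lower, among a background of 63.2% of all probe sets called in either direction, 25.7% higher and 37.5% lower. Of the 33 genes, 10 reached 100 on root arrays only and 6 on shoot arrays only, a choice that favours a difference between the organs, so the counts over all 33 do not support a result about the family. Of the 13 genes at 100 or more on all 8 arrays, 8 were higher and 4 lower in shoots (61.5% and 30.8%), against 25.3% higher, 32.6% lower and 57.9% in either direction among all probe sets at that level on all arrays. Within these 13, UGT71B1, UGT71C4, UGT73B1, UGT76C2 and UGT84A3 lost their calls when certain single arrays were left out. UGT73B1 and UGT84A3, both lower in shoots, also lost theirs under quantile normalization and under median centring. At an unadjusted p under 0.05 there were 30 UGT genes, against 66.9% of all probe sets. All 4 shoot arrays lay above all 4 root arrays for 14 UGT genes, against 26.3% of all probe sets, and below them for 15, against 39.8%. The median size of the organ difference, without its sign, was log2 1.61 over the UGT genes and 0.82 over all probe sets. This median, the unadjusted count and the separated arrays cover the same 33 genes. The choice of genes favours them too, so they are descriptions and no result about the family. The median size of the selenate change over the UGT genes was log2 0.37 in shoots and 0.29 in roots.

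Shoot-high genes were led by UGT78D1, which puts rhamnose on flavonols. Its signals were 1994.6 and 2064.4 in control shoots, against 33.1 and 28.2 in control roots, a log2 difference of 5.21 ± 0.22. UGT88A1 had 5311.9 and 3624.2 in control shoots, against 209.1 and 229.9 in control roots (log2 4.18). UGT76E11 had 463.6 and 652.5 in control shoots, against 14.3 and 5.9 in control roots (log2 4.05). For these 3 genes all 4 shoot arrays lay above all 4 root arrays. UGT78D1 and UGT76E11, like UGT72B3, met the signal rule in shoots alone, so the direction of their difference follows from the rule. UGT72B3 had 229.5 and 265.6 in control shoots, against 61.9 and 61.4 in control roots (log2 1.65), and UGT85A4 had 225.4 and 198.1 in control shoots, against 59.9 and 88.9 in control roots (log2 1.27). Smaller log2 differences were called for UGT76C1 (1.18), the auxin glucosyltransferase UGT74D1 (1.05), UGT78D2 (0.87), UGT87A2 (0.81) and UGT76C2 (0.71).

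Root-high genes were led by UGT71C1, which glucosylates hydroxycinnamates and flavonoids in vitro. Its signals were 5.9 and 23.3 in control shoots, against 1048.2 and 1167.6 in control roots, a log2 difference of -4.87 ± 0.24. UGT76B1 had 21.7 and 7.1 in control shoots, against 1081.8 and 1027.9 in control roots (log2 -4.80). UGT71C1 and UGT76B1 met the signal rule in roots alone, as did UGT72E3, so the direction of their difference follows from the rule. Among the monolignol glucosyltransferases, UGT72E1 and UGT72E2 reached 100 in both organs, but UGT72E2 did so in shoots only with selenate. On the control arrays UGT72E2 reached 100 in roots alone. Both genes were called lower in control shoots, where 37.5% of all probe sets were called lower. UGT72E2 had 83.9 and 96.5 in control shoots, against 2036.2 and 2250.0 in control roots (log2 -4.23), and UGT72E3 had 10.5 and 4.5 in control shoots, against 293.2 and 268.8 in control roots (log2 -3.24). UGT72E1 stood at log2 -2.29. UGT73B5 was at 73.3 and 41.2 in control shoots, against 572.3 and 672.4 in control roots (log2 -3.00), so its selenate shoots at 142.7 and 157.7 still lay below every root array. UGT71C5, which glucosylates abscisic acid, stood at log2 -1.11 and UGT84A4, a hydroxycinnamate glucosyltransferase like UGT84A3, at -1.92.

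**Figure D4:**
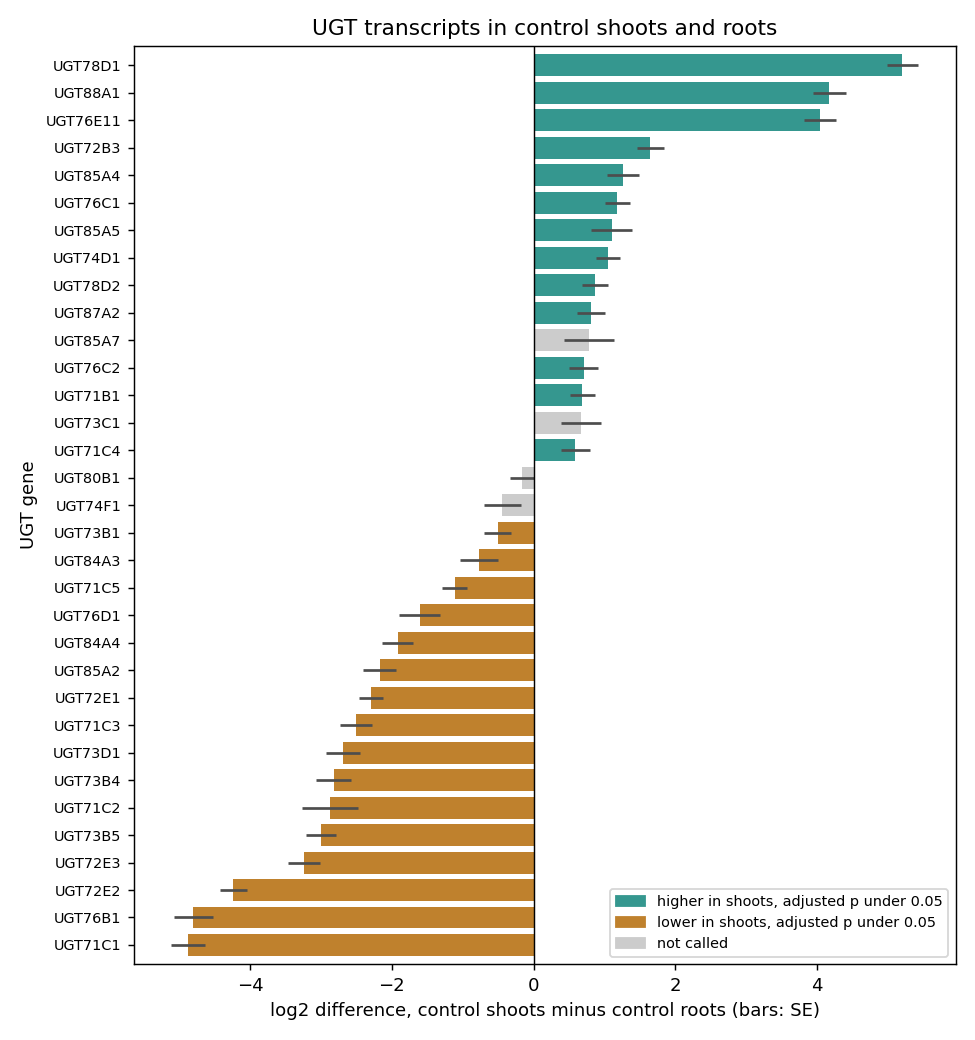
Log2 difference of control shoots minus control roots for the 33 UGT genes, in order of size, with the standard error of the limma fit as a line on each bar. Coloured bars have an adjusted p under 0.05, 13 higher in shoots and 16 lower, and grey bars are the 4 genes not called; values run from 5.21 for UGT78D1 to -4.87 for UGT71C1.

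Of the 29 organ calls, 23 held whichever array was left out, and UGT71B1, UGT71C4, UGT73B1, UGT76C2, UGT84A3 and UGT85A5 lost theirs without at least 1 array. Other scalings moved the median organ difference of all probe sets from -0.21 to -0.09 (quantile) or -0.07 (median centring); UGT73B1 and UGT84A3 lost their calls under both, and UGT73C1 and UGT85A7 gained one, higher in shoots. UGT74F1, a salicylate glucosyltransferase, and UGT80B1, a sterol glucosyltransferase, were at log2 -0.44 and -0.16 and were not called.

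Neighbours in the genome did not always share values. In the RefSeq annotation of assembly TAIR10.1, no protein-coding gene lies between UGT71C5 and UGT71C4 or between UGT71C4 and UGT71C3. In this run of 3 genes the root change with selenate was log2 -0.07, -0.74 and 0.94, and the organ difference was -1.11, 0.59 and -2.51. UGT84A3 and UGT84A4 are adjacent, with shoot changes of 1.31 and 0.25. UGT73B5 and UGT73B4 are adjacent as well, with shoot changes of 1.12 and -0.06, while both were root-high by log2 -3.00 and -2.82. The shoot signals of UGT73B4 were 2.5 and 6.0 with selenate and 6.9 and 4.0 without, at the bottom of the scale. Its shoot change therefore could not be read, and no contrast with UGT73B5 in shoots is drawn from it. UGT85A7, UGT85A2 and UGT85A5 follow each other, and UGT85A2 was root-high (log2 -2.17), whereas UGT85A5 was shoot-high (1.10) and UGT85A7 stood at 0.78. UGT71C2 and UGT71C1 were both root-high (log2 -2.87 and -4.87), and UGT76C2 and UGT76C1 both shoot-high. UGT71C1, UGT71C2, UGT71C3 and UGT73B4 met the signal rule in roots alone, and UGT85A5 and UGT85A7 in shoots alone. The rule favours the direction of their organ differences, so likeness or contrast with a neighbour in that direction is only a description. Tests of these differences between genes were not made.

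Few genes of the connected pathways could be read on the named probe sets. Of 21 genes for UDP-sugar supply 1 was tested, USP, which makes UDP-sugars, at log2 -0.05 in shoots and 0.01 in roots. Of 15 cytokinin genes 2 were tested: the response regulator ARR15 fell in shoots, with 60.1 and 50.9 with selenate and 266.0 and 219.3 without (log2 -1.73, adjusted p = 0.00727), and RR16 stood at 0.63. Of 14 monolignol and sinapate genes 5 were tested, and 1 was called with selenate. This was BGLU45, a beta-glucosidase of monolignol glucosides, which fell in roots to 125.8 and 120.4, against 316.8 and 341.2 in control roots (log2 -1.26, adjusted p = 0.0191). Of 22 phenylpropanoid and flavonoid genes only DFR was tested, at log2 -0.08 in shoots and 0.35 in roots. Of 8 salicylate genes GRX480, a glutaredoxin induced by salicylate, was tested, and it rose in roots to 3674.5 and 3051.7, against 253.6 and 200.5 in control roots (log2 3.75, adjusted p = 5.39e-06). Of 17 genes for foreign compounds AER, an alkenal reductase, stood at log2 1.13 in shoots (adjusted p = 0.0778). The tau glutathione transferases, which conjugate foreign and reactive compounds, were better covered, with 11 of 11 named genes tested. Of these 11, GSTU27 rose in roots (log2 1.31, adjusted p = 0.00234) and GSTU16 rose in shoots (log2 1.29, adjusted p = 0.0343), while none was called lower. The median over the 11 was log2 0.11 in shoots and -0.14 in roots. GSTF4, the phi member tested, stood at log2 -0.26 in shoots and 0.06 in roots.

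Just inside the signal rule were UGT73C1 and UGT74F1, whose second-highest signals were 128.1 and 128.7, and just outside were UGT76E2 at 88.7 and UGT85A3 at 76.1. The 13 named UGT genes under the rule were UGT71B5, UGT71B6, UGT71B8, UGT73C2, UGT73C7, UGT76E1, UGT76E2, UGT76E12, UGT78D3, UGT84A1, UGT84B1, UGT84B2 and UGT85A3, with highest signals of 7.8 to 95.3.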

How the data were processed

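The deposited values are MAS5 signal intensities, per the submitters' processing notes; the version, the detection calls and the scaling target are not given in the sources used here. RNA came from roots or shoots and was labelled as biotinylated cRNA, per the labels' protocols. Of 22810 probe sets, 64 controls were left out, and the GEO platform table names 1 gene for 13513, several for 503 and none for 8730. All 33 UGT genes have 1 probe set each, so the alternative over several probe sets of a gene was not run.

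Probe sets with a signal of 100 or more on at least 2 of 8 arrays (16053) entered a linear model of log2(signal + 25) with 1 mean per group (limma 3.58.1, R 4.3.3, variance trend), and p-values were adjusted over all of them by Benjamini and Hochberg's method; a call is an adjusted p under 0.05. Residual degrees of freedom were 4. The script was tested on simulated data. Precision is limited by the 2 arrays per group, and low MAS5 signals have no stated background limit. Replicate numbers were not taken to pair arrays across groups in the main model, and whether arrays are paired is not settled here. Same-numbered arrays deviated together in roots (r = 0.339) and apart in shoots (r = -0.485).

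Alternatives were other pseudocounts (5, 100), no filter, a filter of 200 on at least 4 arrays, quantile normalization, median centring, no trend, 1 organ alone, a replicate block, and arrays left out. Values on every array are given for the UGT genes of the set called with selenate or in the difference. Called genes of the marker and pathway lists are given with fewer signals or none. For the 5 largest organ differences each way, values are given on the control arrays at least. Other genes given with signals were chosen after their values were seen. Members and gene lists were chosen with earlier results of these data known. Promoter and protein sequences were not used here.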

Additional observations from a re-analysis of the deposited data

Results flagged for a closer look

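The test of the root response minus the shoot response to selenate passed for 2 UGT genes, against 3.70% of all probe sets in either direction. For UGT73C1 the root change minus the shoot change was -1.80 on the log2 scale (limma adjusted p = 0.0434), and both selenate shoot arrays were above both control shoot arrays while all 4 root signals were at or below 6.4. This gene met the signal rule through selenate shoots alone, so its value is a description and no evidence of an organ-specific response. For UGT84A3 the root change minus the shoot change was -1.75 (limma adjusted p = 0.0390), with both selenate arrays above both control arrays in shoots and below them in roots. Its root change of log2 -0.44 did not pass the test (limma adjusted p = 0.564). The difference lost its call without any single root array or either selenate shoot array.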

How the results depend on the processing

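No UGT value of the organ and selenate tests changed sign under the alternatives where it had been called. Against 1 call in roots, limma called 0 with a pseudocount of 5, without a filter, with the stricter filter and with a replicate block (5, 7, 6 and 6 genes at an unadjusted p under 0.05), 2 with a pseudocount of 100, 2 with quantile normalization, 4 with the crossed replicate block, 4 without the 2 shoot arrays of high GAPDH ratio and 6 with root arrays alone; lower calls were UGT71C4 under the last 4 of these settings, UGT71C2 with root arrays alone and UGT78D1 with the crossed block. Against 3 in shoots, limma called 1 with a pseudocount of 5, 1 without a filter, 1 with the stricter filter, 1 with quantile normalization and 9 with the crossed block (8 higher, and UGT76C2 lower). Without the 2 shoot arrays of high GAPDH ratio it called 4, of which UGT73C1, UGT73B5 and UGT76B1 were higher and UGT76C2 was lower. With shoot arrays alone and with the replicate block it called 0 in shoots (9 and 10 genes at an unadjusted p under 0.05), as it called 0 of all 16053 probe sets (1318 and 1756). Against 2 for the difference, limma called 0 with a pseudocount of 5 and 0 with the replicate block (5 and 6 at an unadjusted p under 0.05), 1 without a filter and 1 with the stricter filter. Leaving out 1 array gave 0 to 2 calls in roots, 0 to 3 in shoots, 0 to 3 for the difference and 24 to 30, against 29, for the organs; with 1 array left in a group, that array is assumed to vary like the others. The causes were not tested. The 4 root settings listed with 0 calls had, in that order, 2247, 2728, 1800 and 1958 of all probe sets at an unadjusted p under 0.05. The 2 difference settings listed with 0 calls had 2375 and 1917. All probe sets called in roots numbered 917, against 437 with the replicate block, 1880 with the crossed block and 2145 with root arrays alone. They numbered 2047 without the 2 shoot arrays, 769 with a pseudocount of 5 and 1157 with a pseudocount of 100. Quantile normalization gave 1028 in roots, no filter 812 of 22746 probe sets and the stricter filter 647 of 12458. In shoots 299 were called, against 1578 with the crossed block and 745 without the 2 arrays. A pseudocount of 5, no filter, the stricter filter and quantile normalization gave 264, 215, 238 and 265 in shoots. For the difference 594 were called, against 377 with the stricter filter, 149 with the block and 1910 with the crossed block. The difference had 1358 without the 2 arrays, 460 with a pseudocount of 5 and 500 without a filter. With 1 array left out these counts ran from 398 to 1351 in roots, 51 to 631 in shoots and 233 to 1017 for the difference. The crossed pairing was added after seeing the data; with 2 arrays a group and no detection calls, small changes and signals near 0 could not be resolved.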

Other observations

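A probe set shared by UGT73B2 and UGT73B3, which the rule leaves out because it matches 2 genes, was chosen after its values were seen. Its signals were 1967.1 and 1511.1 in selenate shoots, against 477.6 and 584.3 in control shoots (log2 1.66, limma adjusted p = 0.00542), and 3012.7 and 2842.4 in selenate roots, against 2175.2 and 1767.6 in control roots (log2 0.57, adjusted p = 0.149). The groups did not overlap in either organ, the difference between the organs was not called (log2 -1.09, adjusted p = 0.0627), and the signal cannot be assigned to 1 of the 2 genes.

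The glycosyltransferases GT72B1, IAGLU, UF3GT and SGT, which carry no UGT symbol on the probe table, were not called with selenate in either organ. GT72B1, which glucosylates chlorophenols and chloroanilines, stood at log2 0.83 in shoots (adjusted p = 0.123) and -0.38 in roots, and IAGLU, an auxin glucosyltransferase, stood at log2 0.71 in shoots (adjusted p = 0.184).

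Some UGT genes under the signal rule had groups that did not overlap, at signals below the minimum of the main test. Some were higher with selenate and others lower, and examples of both are given here, chosen after their values were seen. UGT73C7 had 80.1 and 64.7 in selenate roots, against 18.8 and 27.7 in control roots. UGT71B6, which glucosylates abscisic acid, had 30.5 and 64.5 in selenate shoots, against 1.7 and 4.9 in control shoots. In the other direction, UGT73C2 had 13.4 and 5.4 in selenate shoots, against 21.6 and 26.7 in control shoots. UGT71B8 had 23.9 and 14.9 in selenate roots, against 32.7 and 41.5 in control roots.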
